A study of Mus musculus with 2 samples.

Results

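Transcription regulators of the MEF2, sine oculis homeobox (SIX4 and SIX5), EYA and T-box families and SOX6 were followed in the gastrocnemius, a mixed-fiber calf muscle, of mice that overexpress FOXO1 in skeletal muscle. The 9 genes taken were Mef2a, Mef2c, Mef2d, Six4, Six5, Eya1, Eya4, Tbx15 and Sox6, out of 21366 mouse genes that the array probes could be named as, and all 12 probes carrying their transcripts were kept. The FOXO1-Tg group was 1 RNA pool of 5 male FOXO1 transgenic mice aged 25 weeks, and the wild-type group was 1 RNA pool of 6 male wild-type control mice of the same age. The cyanine 3-labeled RNA of either pool was put on an Agilent 1-color mouse array of its own, so each group has 1 measurement, no spread between mice can be seen, and no p-value is given. The promoter that drives the transgene is not given in the sources used here.

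MEF2 proteins are MADS-box factors that bind A/T-rich sites in muscle genes, work together with MyoD-family factors, and are switched by signaling: class IIa histone deacetylases hold them inactive, and calcineurin, calcium/calmodulin-dependent kinases and p38 release them. Sine oculis homeobox proteins bind MEF3 sites, and EYA proteins are their coactivators and carry phosphatase activity of their own. In mouse muscle, SIX4 and EYA1 are known for the fast glycolytic gene program, TBX15 for glycolytic fibers, SOX6 for repression of slow-fiber genes in fast fibers, and MEF2 for slow oxidative genes.

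In FOXO1-Tg muscle, the brightest Mef2a probe and Mef2c were at 0.632-fold and 0.636-fold of wild-type after scaling. Their relative Mef2d was at 0.945-fold. The other Mef2a probes gave 0.741-fold and 0.684-fold, and without scaling the log2 ratios of Mef2a and Mef2c were -0.53 and -0.52. Eya1, Tbx15 and Six4 were lower by less, and Eya4, Sox6, Mef2d and Six5 differed by less than the error of the array itself. Six4 did so too with median scaling or no scaling. None of the 9 genes was past 2-fold in either direction. Ratios are log2 values of FOXO1-Tg over wild-type after each array was set to its own 75th percentile, and their error is the scanner software's error of both signals combined. The error is the software's own figure for the array measurement and not the difference between mice or labelings. It was 0.204 for Mef2a and at most 0.205 (Six5), so a count of errors is nearly a fixed cut on the ratio. The SD over the spots of a probe, where it could be measured, had a median of 0.0526.

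Of the 16660 genes detected on at least 1 array, 704 (4.23%) were higher by more than 2-fold in FOXO1-Tg muscle, and 650 (3.9%) were lower by more than 2-fold. The share of higher ones among them was 52.0%, but 61.9% with median scaling, 63.4% to 69.8% with quantile normalization, no scaling, loess, or normexp with quantile normalization, and 37.0% with no filter on dim probes. Among the 15486 genes detected on both arrays, 12.7% lay more than 2 scanner errors above 0 and 14.3% more than 2 scanner errors below 0. A ratio below 0 was found for 58.3% of them, and their median was -0.07. Of the 9 genes, 2 were more than 2 scanner errors below 0 and 0 above, 3 were between 1 and 2 errors below 0, and 4 were within 1 error. With median scaling or no scaling, Six4 also fell within 1 error. All but Six5 had a ratio below 0, which is 8 of 9, and their median was -0.29.

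The labels were checked on Foxo1. Its brighter probe read 279457 in the FOXO1-Tg pool and 4540 in the wild-type pool, a log2 ratio of 5.81. A second Foxo1 probe gave 3188 in the FOXO1-Tg pool and 2853 in the wild-type pool, a ratio of 0.03, and whether the transgene carries its sequence is not given in the sources used here. All 8 skeletal muscle fiber markers, such as skeletal actin (Acta1) and muscle creatine kinase (Ckm), were detected on both arrays. The spots well above background made up 65.8% on the FOXO1-Tg array and 65.5% on the wild-type array, and no spot was saturated. Each of the 12 probes was printed as 1 spot, was well above background on both arrays, and had a raw signal between 11.7 and 1169 times its local background.

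**Figure D1:**
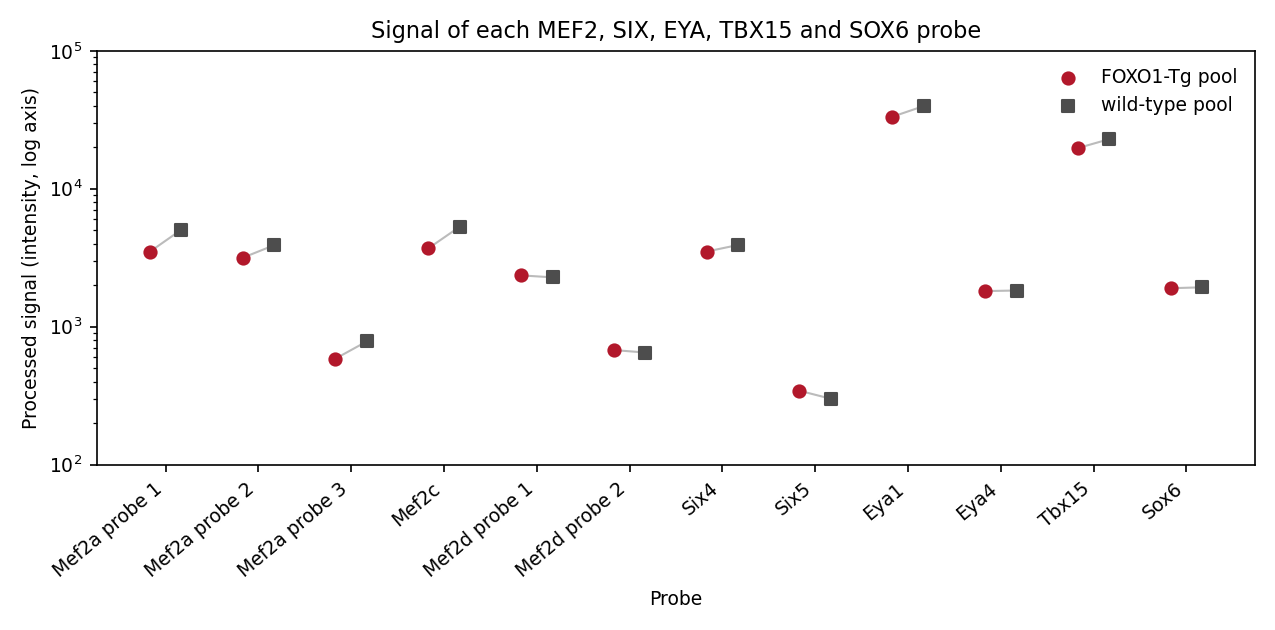
Processed signal of the 12 probes of the 9 genes (log axis, intensity), with the FOXO1-Tg pool as red circles and the wild-type pool as gray squares, 1 array each. The FOXO1-Tg point lies below the wild-type point for the 3 Mef2a probes, Mef2c, Six4, Eya1 and Tbx15 and close to it for the others. Heights are not comparable between probes.

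Mef2a and Mef2c had the lowest ratios of the 9 genes. Mef2a, a MEF2 factor present in adult muscle fibers, had 3 probes. The brightest read 3492 in the FOXO1-Tg pool and 5048 in the wild-type pool, a ratio of -0.66 with a scanner error of 0.20 on the log2 scale (-0.66 ± 0.20), or 0.632-fold. The second read 3158 in the FOXO1-Tg pool and 3895 in the wild-type pool, and the third 586 in the FOXO1-Tg pool and 783 in the wild-type pool. Their ratios were -0.43 and -0.55, each more than 2 scanner errors below 0. The gap between the highest and lowest of the 3 ratios was 0.23, less than its combined error of 0.29, so the probes did not differ beyond the array error. Among all genes detected on both arrays, 6.68% had a lower ratio than the brightest Mef2a probe and 14.9% a lower ratio than the least reduced one. For scale, the 4050 genes with several detected probes had a median gap of 0.17 between their probes.

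Mef2c, the MEF2 gene needed in mice for early heart and muscle development and for sarcomere integrity, had 1 named probe. It read 3689 in the FOXO1-Tg pool and 5306 in the wild-type pool, a ratio of -0.65 ± 0.20, or 0.636-fold. It lay 3.20 scanner errors below 0, and 6.83% of genes had a lower ratio. Mef2a and Mef2c differed from each other by -0.01 ± 0.29. The array cannot tell which transcript forms of the gene took part, since a single probe was named.

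Mef2d, a further MEF2 gene of adult muscle, had ratios near 0 on both of its probes. Its brighter probe read 2355 in the FOXO1-Tg pool and 2278 in the wild-type pool, and its second probe read 677 in the FOXO1-Tg pool and 649 in the wild-type pool. Their ratios were -0.08 and -0.07, within 1 scanner error of 0 and of the median of all genes, and the sign of the brighter probe turned to 0.03 with median scaling and 0.05 without scaling. The processed signal before scaling was slightly higher in the FOXO1-Tg pool, and the scaling to the 75th percentile (844 in the FOXO1-Tg pool, 771 in the wild-type pool) placed the ratio below 0. The difference in ratio was -0.58 ± 0.29 for the brightest Mef2a probe minus Mef2d and -0.57 ± 0.29 for Mef2c minus Mef2d. Each is close to 2 combined scanner errors. The other Mef2a probes, at -0.43 and -0.55, lay nearer to Mef2d, at less than 2 combined scanner errors. Such a difference between genes is the same under any scaling that adds 1 constant to all log2 values of an array. Mef2b, the remaining MEF2 gene, was well above background in the wild-type pool only, at signals of 11.3 in the FOXO1-Tg pool and 21.5 in the wild-type pool. Its level in the FOXO1-Tg pool is a bound, at least 1.62-fold lower, signals this dim have an error of 0.55, and with normexp and quantile normalization its ratio was -0.08.

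**Figure D2:**
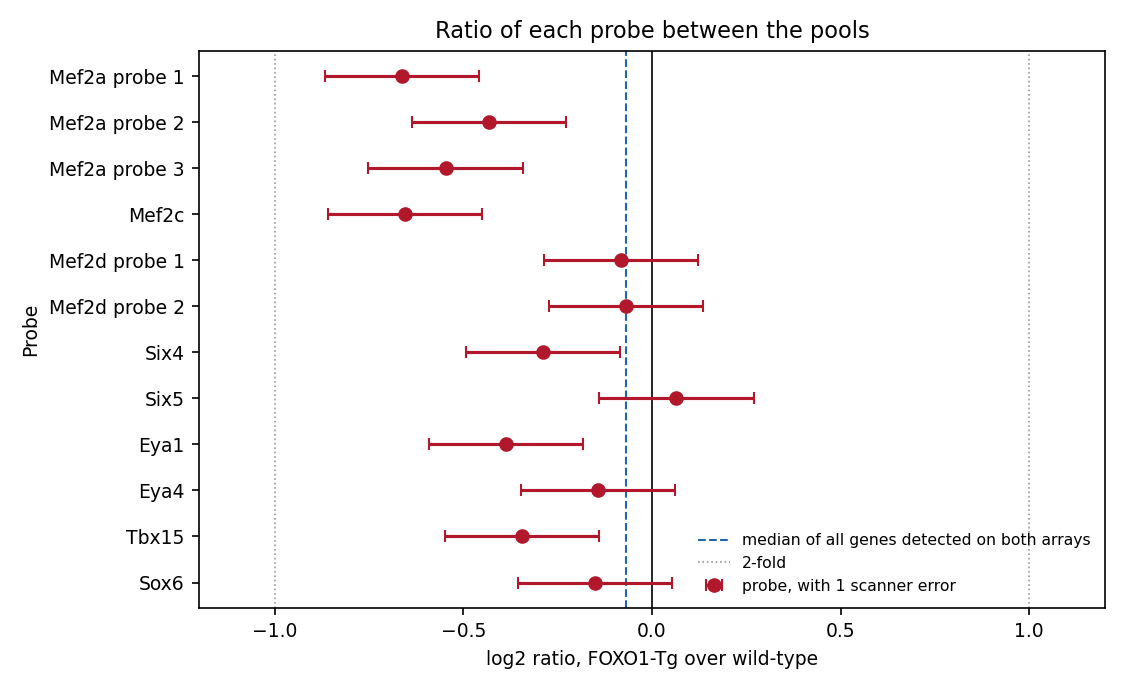
Ratio (log2, FOXO1-Tg over wild-type) of the 12 probes, with bars of 1 scanner error, the median of all genes detected on both arrays as a dashed line (-0.07), and 2-fold as dotted lines. The Mef2a probes and Mef2c lie lowest, from -0.66 to -0.43, and both Mef2d probes lie at the all-gene median. The brighter Mef2d probe changes sign under median scaling and under no scaling.

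The promoter windows of the 3 MEF2 genes are shown because Mef2a and Mef2c, unlike Mef2d, lay more than 2 scanner errors below 0. They run from 250 bases before to 50 bases after a transcript start in RefSeq (GRCm38.p6), 5′ to 3′ on the gene's strand, with the first of 3 windows for Mef2c and the only one for Mef2a and Mef2d. Capitals mark MEF2 and MEF3 sites.
Mef2a promoter window, chr7:67372809-67373108, minus strand: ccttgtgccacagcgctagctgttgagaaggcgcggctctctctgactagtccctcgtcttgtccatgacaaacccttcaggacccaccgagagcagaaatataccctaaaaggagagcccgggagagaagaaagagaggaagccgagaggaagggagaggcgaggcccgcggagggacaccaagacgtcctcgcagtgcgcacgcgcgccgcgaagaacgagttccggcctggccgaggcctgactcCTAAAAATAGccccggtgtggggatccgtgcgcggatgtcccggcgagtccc
Mef2c promoter window, chr13:83503784-83504083, plus strand: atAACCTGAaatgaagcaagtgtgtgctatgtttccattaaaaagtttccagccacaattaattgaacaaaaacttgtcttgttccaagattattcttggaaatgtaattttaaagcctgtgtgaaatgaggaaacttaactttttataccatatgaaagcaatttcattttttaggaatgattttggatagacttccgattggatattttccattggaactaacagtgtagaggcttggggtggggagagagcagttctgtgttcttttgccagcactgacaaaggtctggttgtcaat
Mef2d promoter window, chr3:88142122-88142421, plus strand: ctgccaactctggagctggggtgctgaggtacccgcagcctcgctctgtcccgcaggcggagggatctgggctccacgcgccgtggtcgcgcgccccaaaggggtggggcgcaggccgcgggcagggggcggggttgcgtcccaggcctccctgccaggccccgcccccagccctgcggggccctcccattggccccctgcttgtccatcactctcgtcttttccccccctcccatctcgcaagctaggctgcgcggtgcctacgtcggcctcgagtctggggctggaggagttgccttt
The sequences, like the motifs, were taken up after the ratios were known, and they describe letters only. Motifs were searched on both strands: the FOXO core TGTTTAC, the MEF2 site, the MEF3 site TCAGGTT, the TEAD-bound motif of muscle genes known as M-CAT, searched as CATTCC, the E-box bound by MyoD-family factors, searched as CANNTG, the CArG box (bound by SRF), the SOX motif AACAAT, and the T-box motif, whose letters are AGGTGT.

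The Mef2a window held 1 MEF2 site that begins 2 bases before the transcript start, a motif found in 3.19% of all 32851 windows of this length. The Mef2c window held 1 MEF3 site, found in 4.07% of all windows and here read on the opposite strand, 248 bases before the start. It also held 1 M-CAT site, found in 14.7% of all windows, and 2 E-boxes, a motif found in 72.3%. None of these sites overlapped another. The Mef2d window held none of the 8 motifs. Its G and C share was 72%, against 62.3% in Mef2a, 35.7% in Mef2c, and a median of 52.7% over all windows. The FOXO core, found in 3.65% of all windows, was in none of the 16 windows of the 7 genes that have one. Neither was the CArG box, found in 1.63%. The SOX motif (10.7% of all windows) and the T-box motif (13.7%) were absent from the 3 windows printed. The other Mef2c windows held no MEF2 or MEF3 site. Sox6, whose ratio was within 1 scanner error of 0, held 1 MEF2 site and 1 MEF3 site over its 6 windows. Its windows also held M-CAT, E-box, SOX and T-box motifs. The windows of Six5 and Eya4 held neither a MEF2 nor a MEF3 site. Eya1 and Tbx15 had no window in the table.

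The sine oculis homeobox genes differed among themselves. Six4, a homeodomain factor of muscle development in the mouse, read 3504 in the FOXO1-Tg pool and 3911 in the wild-type pool, a ratio of -0.29 ± 0.20. With median scaling it was -0.18 and without scaling -0.16, both within 1 scanner error of 0. The Six4 minus Six5 difference was -0.35 ± 0.29, between 1 and 2 combined scanner errors. The first Six4 window held 1 MEF3 site, the motif that SIX4 binds, 97 bases before the start. The second Six4 window held none.

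Six5, which lies next to the myotonic dystrophy kinase gene Dmpk, was the only one of the 9 genes with a ratio above 0. It read 343 in the FOXO1-Tg pool and 300 in the wild-type pool, a ratio of 0.06 ± 0.21. Its neighbor Dmpk read 27869 in the FOXO1-Tg pool and 35479 in the wild-type pool, a ratio of -0.48, so that Six5 exceeded Dmpk by 0.54 ± 0.29. Six2 was higher in the FOXO1-Tg pool on both of its probes, with ratios of 0.56 and 0.55, and the Six4 minus Six2 difference was -0.85 ± 0.29. Six3 and Six6, genes of the eye and forebrain, were not detected on either array.

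Eya1, the EYA coactivator known from fast fibers of the mouse, read 33212 in the FOXO1-Tg pool and 39725 in the wild-type pool. Its ratio was -0.39 ± 0.20 or 0.764-fold, 1.90 scanner errors below 0, and 17.4% of genes had a lower one. With normexp and quantile normalization its ratio was -0.42, just over 2 errors below 0. Eya4 read 1811 in the FOXO1-Tg pool and 1829 in the wild-type pool, a ratio of -0.14 ± 0.20. The Eya1 minus Eya4 difference was -0.24 ± 0.29, within the array error. The other pair of EYA genes lay on the opposite side of 0. Eya2 read 1936 in the FOXO1-Tg pool and 1317 in the wild-type pool, a ratio of 0.43, and Eya3 read 6197 in the FOXO1-Tg pool and 4663 in the wild-type pool, a ratio of 0.28. The difference was -0.81 ± 0.29 for Eya1 minus Eya2 and -0.67 ± 0.29 for Eya1 minus Eya3, both more than 2 combined scanner errors.

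DACH proteins are corepressors that can join complexes of EYA proteins. Dach2, which in mouse muscle is known to be controlled by nerve activity and to repress myogenin, had the lowest ratio among the detected genes of all these families. Its brightest probe read 135 in the FOXO1-Tg pool and 480 in the wild-type pool, a ratio of -1.96, and its other probes gave -2.24 and -1.78. Dach1 read 836 in the FOXO1-Tg pool and 939 in the wild-type pool, a ratio of -0.30.

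Tbx15, a T-box factor of glycolytic fibers in mice that is also expressed in fat and skin, read 19696 in the FOXO1-Tg pool and 22880 in the wild-type pool. The ratio was -0.35 ± 0.20 or 0.787-fold, and 20.5% of genes had a lower one. Among the other T-box genes, 1 passed 2-fold: Tbx4, a factor of the hindlimb, read 1262 in the FOXO1-Tg pool and 573 in the wild-type pool, a ratio of 1.01, which was 0.86 with normexp. The Tbx15 minus Tbx4 difference was -1.36 ± 0.29. Tbx1 read 3456 in the FOXO1-Tg pool and 4593 in the wild-type pool, a ratio of -0.54, which did not differ from that of Tbx15 beyond the array error (0.19 ± 0.29). The dim Tbx21, a factor of T and natural killer cells, read 92.3 in the FOXO1-Tg pool and 166 in the wild-type pool (-0.97). Tbx5 read 19.4 in the FOXO1-Tg pool and 30.1 in the wild-type pool (-0.77, and 0.04 with normexp). Tbx3 (0.23), Tbx18 (0.36) and Tbx2 (-0.01, above 0 under other scalings) lay closer to 0, and Tbx20 was not detected.

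Sox6, the SoxD repressor of slow-fiber genes, read 1901 in the FOXO1-Tg pool and 1929 in the wild-type pool. Its ratio of -0.15 ± 0.20 was within 1 scanner error of 0, and 40.1% of genes had a lower one. Its SoxD relatives were as close to 0, with Sox5 at 0.08 and Sox13 at -0.12 (0.01 without scaling). The Sox5 value rests on a probe that read 60746 in the FOXO1-Tg pool and 52624 in the wild-type pool. A second Sox5 probe read 12.0 in the FOXO1-Tg pool and 11.4 in the wild-type pool and was detected on neither array. The difference was -0.23 ± 0.29 for Sox6 minus Sox5 and -0.03 ± 0.29 for Sox6 minus Sox13, both within the array error.

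**Figure D3:**
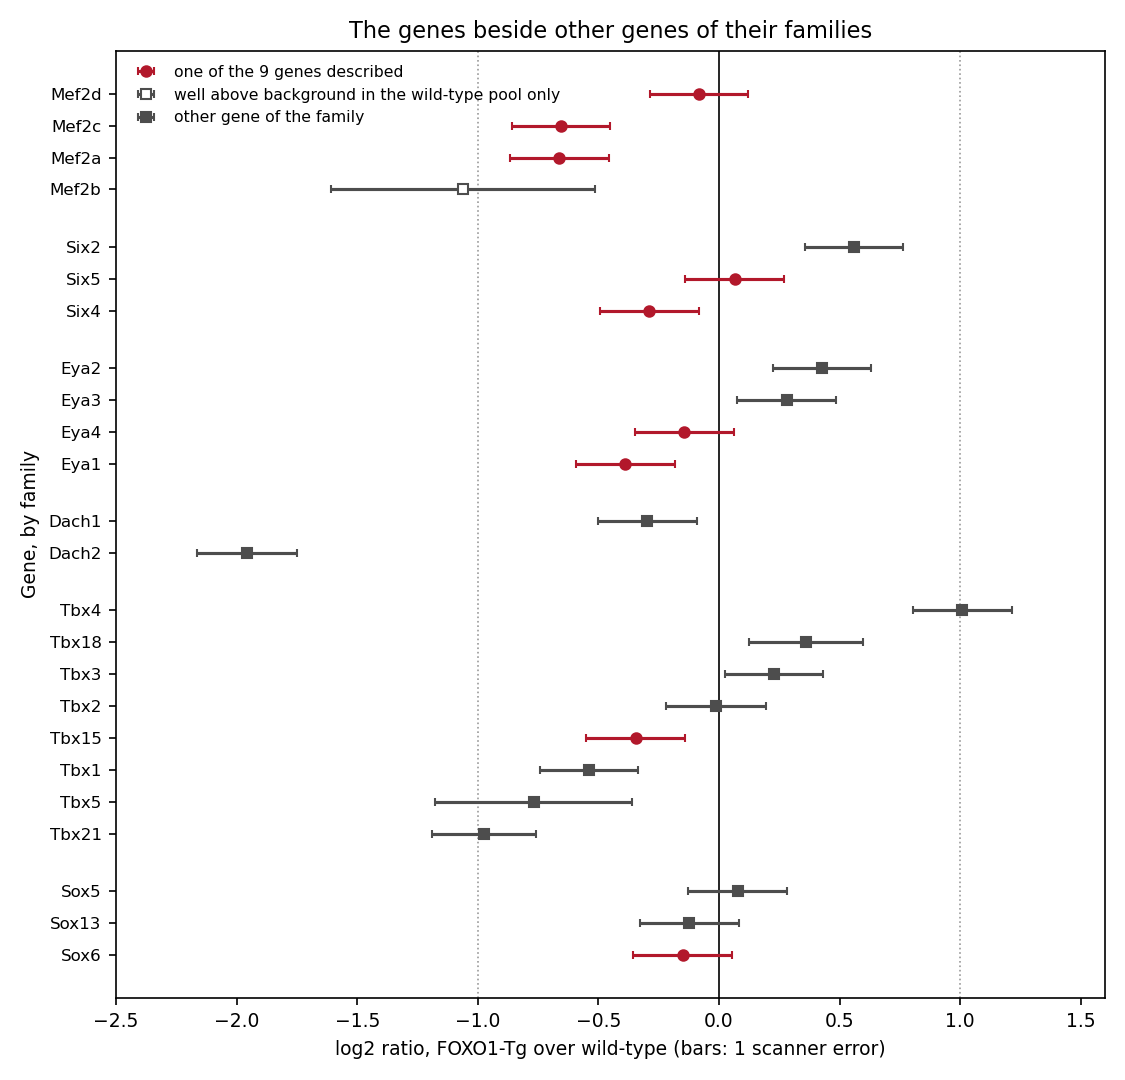
Ratios (log2, FOXO1-Tg over wild-type) by family for the 9 genes (red circles) and 15 detected other genes of their families, with Dach1 and Dach2 (gray squares), with bars of 1 scanner error and dotted lines at 2-fold. The 9 genes lie between -0.66 and 0.06, while their relatives spread from -1.96 (Dach2) to 1.01 (Tbx4). The open square is Mef2b, which was well above background in the wild-type pool only. Mef2d, Sox13, Tbx2 and Tbx5 change sign under 1 or more other scalings.

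Over these families, 18 other genes were listed and 15 detected. Past 2-fold were 1 higher gene (Tbx4) and 1 lower gene (Dach2), and the median of the 14 detected on both arrays was 0.03, and above 0 under each other scaling. The corresponding shares over all genes are the 4.23% and 3.9% given above.

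Next to the factors themselves, the proteins that switch MEF2 were examined. Of 24 detected MEF2 corepressors, coactivators and activating kinases, none was past 2-fold upward and 1 was past it downward (4.23% and 3.9% of all genes). More than 2 scanner errors above 0 was 1 gene and below 0 were 7, or 3 with median scaling, no scaling or loess (12.7% and 14.3% of all genes), and the list median was -0.27. The gene past 2-fold was Camk2b, a calcium/calmodulin-dependent kinase subunit, which read 24742 in the FOXO1-Tg pool and 48490 in the wild-type pool, a ratio of -1.10, which was -0.99 with median scaling and -0.97 without scaling and so not past 2-fold there. Mrtfa, an actin-regulated coactivator of SRF, read 7054 in the FOXO1-Tg pool and 11914 in the wild-type pool (-0.89). At the other end were Prkd1, a kinase that acts on class IIa deacetylases, at 452 in the FOXO1-Tg pool and 273 in the wild-type pool (0.60), and the dim Myocd (0.26). The class IIa deacetylases Hdac4 (-0.41) and Hdac5 (-0.41), picked after their values were seen, were both at -0.28 without scaling, and Hdac9 and Hdac7 had ratios of 0.11 and 0.06.

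Genes that MEF2 is known to act on showed both directions. Of 26 detected, 1 was past 2-fold upward and 3 downward, where the shares of all genes were 4.23% and 3.9%, and the list median was -0.19. The 3 lower ones were the slow myosin heavy chain Myh7 at 15874 in the FOXO1-Tg pool and 40315 in the wild-type pool (-1.47), slow troponin I (Tnni1, -1.33) and myoglobin (Mb, -1.14). The higher one was Ankrd1, a stretch-responsive ankyrin repeat protein, at 5763 in the FOXO1-Tg pool and 1957 in the wild-type pool (1.43). The noncoding RNA Meg3, from a locus under Mef2a control in mouse muscle, was next at 3165 in the FOXO1-Tg pool and 1625 in the wild-type pool (0.83), but its other probes gave 0.32 and -0.02. Among 12 slow fiber contractile genes, 7 were more than 2-fold lower (3.9% of all genes) and 0 higher (4.23%), with a median of -1.36. Only the tropomyosin Tpm3 lay above 0, at 0.24 by its brightest probe, but its other probes gave -1.60 and -1.81. Among 16 fast fiber contractile genes 1 was more than 2-fold lower (Myoz3, -1.36) and 0 higher, with a median of -0.18. The slow fiber median lay below the ratios of Mef2a (-0.66) and Mef2c (-0.65).

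Of 23 detected genes that sine oculis homeobox and EYA proteins are known to act on in muscle, none was past 2-fold upward (4.23% of all genes) and 3 were past it downward (3.9%), with a median of -0.14 over the 22 detected on both arrays (0 with quantile normalization). The lowest was 2310065F04Rik, the noncoding RNA known as linc-Myh, which lies in the fast myosin locus of the mouse. It read 186 in the FOXO1-Tg pool and 5618 in the wild-type pool, a ratio of -5.05. The sodium bicarbonate cotransporter Slc4a4 read 606 in the FOXO1-Tg pool and 1625 in the wild-type pool (-1.55). Myod1, the myogenic factor of fast fibers, read 1008 in the FOXO1-Tg pool and 2023 in the wild-type pool (-1.13). At the other end were myogenin (Myog, 0.73) and the phosphatase inhibitor Ppp1r1a (0.37). For comparison, the ratios of Eya1 and Six4 were -0.39 and -0.29.

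A further list held 27 detected fiber-type factors outside these families. Of these, 1 was past 2-fold upward (4.23% of all genes) and 2 downward (3.9%), 14 lay more than 2 scanner errors below 0 (14.3%), and the median of -0.46 was lower than the -0.29 of the 9 genes. The lowest was Tead4, an M-CAT binding factor, at 73.8 in the FOXO1-Tg pool and 438 in the wild-type pool (-2.70, and -1.84 with normexp). The Tead4 minus Tead1 difference was -1.95 ± 0.30, and -1.14 with normexp. Irx3 followed, at 287 in the FOXO1-Tg pool and 1026 in the wild-type pool (-1.97). Runx1, a factor induced in mouse muscle by denervation, was the higher one at 279 in the FOXO1-Tg pool and 112 in the wild-type pool (1.18, but 0.79 and not past 2-fold with normexp), followed by Vgll3, a TEAD cofactor (0.72).

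**Figure D4:**
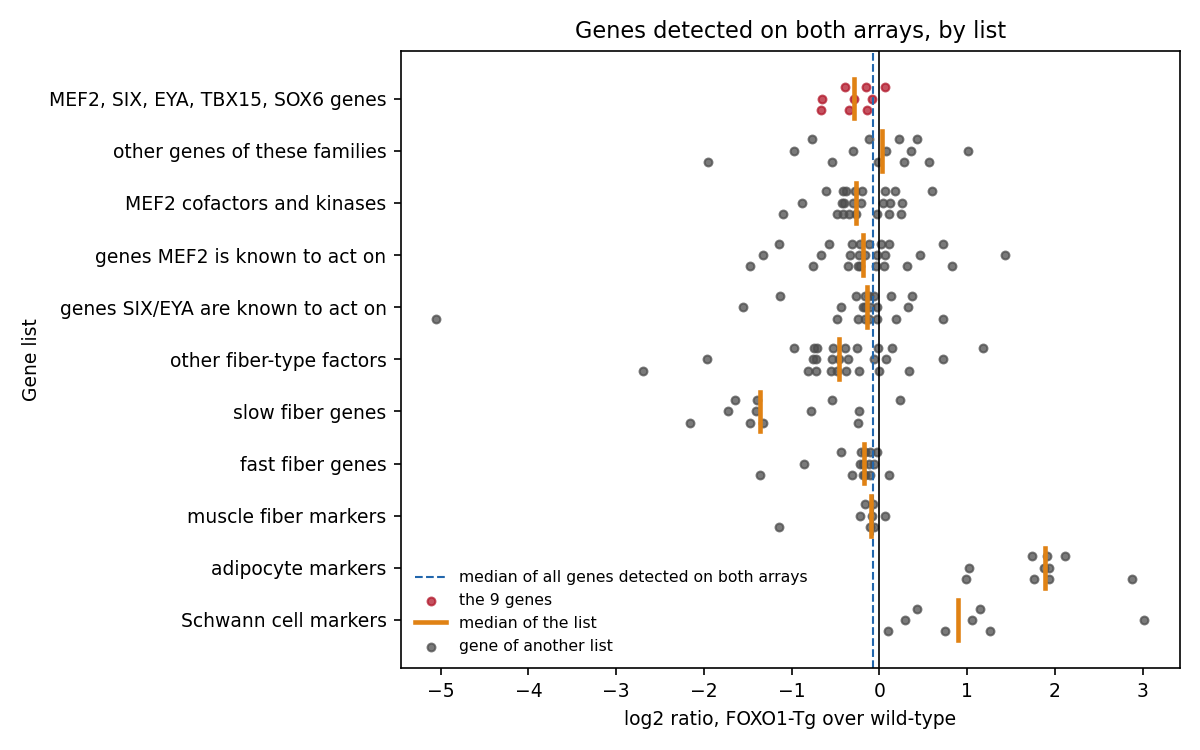
Ratios (log2, FOXO1-Tg over wild-type) of genes detected on both arrays, 1 point per gene, by list, with the median of each list as an orange line and the median of all genes dashed (-0.07). The 9 genes (red) have a median of -0.29, between the list of sine oculis homeobox and EYA targets (-0.14) and the other fiber-type factors (-0.46), while slow fiber genes have -1.36 and adipocyte markers 1.89. The sign of the median of the muscle fiber markers turns under other scalings.

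Markers of some other cell types differed between the pools, and those of others did so little. All 10 adipocyte markers were more than 2 scanner errors above 0 and 9 were more than 2-fold higher (12.7% and 4.23% of all genes), and their summed signal was 309904 in the FOXO1-Tg pool and 105001 in the wild-type pool. Schwann cell markers had a median of 0.90, with 4 of 8 more than 2-fold higher and a summed signal of 103386 in the FOXO1-Tg pool and 73076 in the wild-type pool. Fibroblast markers had a median of 0.50, with 5 of 7 more than 2 errors above 0. Keratinocyte markers were more than 2-fold higher for 4 of 6 detected, but Krt14 (0.70) and Krt1 (0.51) were not with normexp, and Trp63 was lower (-0.41). Satellite cell markers had a median of 0.38 with none past 2-fold, macrophage and leukocyte markers 0.32, smooth muscle and pericyte markers 0.09, and endothelial markers -0.23. The 8 muscle fiber markers had a median of -0.10 (0.03 without scaling). In pooled tissue RNA, fewer cells of a type and less RNA per cell cannot be told apart, and the part of these markers in the ratios of the 9 genes was not tested.

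The ratios of the 9 genes were recomputed under 11 alternatives. Of these, 5 left every value as it was, since the filters, the floor, the outlier spots and the deposited value table do not touch these bright single-spot probes, and the median over probes could move only Mef2a and Mef2d. Under the other scalings and background correction each ratio stayed within 1 scanner error of that given above, with a largest move of 0.13, and Mef2d changed sign under 2 of them. Mef2a ranged from -0.66 to -0.53 and Mef2c from -0.65 to -0.52. Median scaling and no scaling moved the median of all genes by 0.11 and 0.13. Relative to that median under each setting, Mef2a lay between -0.61 and -0.47 and Mef2c between -0.60 and -0.51.

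**Figure D5:**
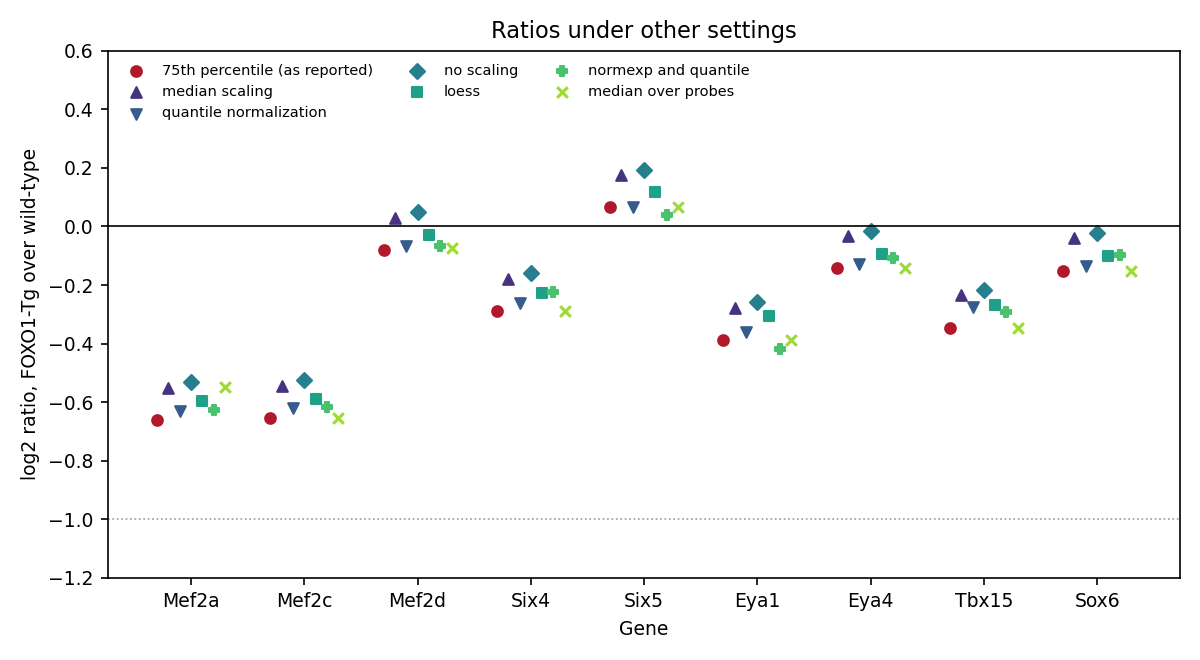
Ratio (log2, FOXO1-Tg over wild-type) of the 9 genes under the 75th percentile scaling reported (red circles) and 6 other settings, with 2-fold lower as a dotted line at -1. No point reaches 2-fold, Mef2a and Mef2c stay between -0.66 and -0.52, and Mef2d crosses 0 under median scaling and no scaling.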

How the data were processed

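Gastrocnemius RNA was measured on 2 arrays, 1 per pool. The authors deposited intensity values, the background-subtracted signals written by Agilent Feature Extraction, not scaled between arrays. The headers name version 11.0.1.1 and the submitters' notes 9.5. A deposited value table repeats these signals (largest difference 0, medians 50.0 for FOXO1-Tg and 50.3 for wild-type). The array was designed on mm9.

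Here, 237 outlier spots were left out, log2 signals were set to the 75th percentile of each array, and spots of a probe were averaged. Detection asked for 50% or more of a probe's spots to be well above background. Probes were named through their RefSeq transcripts (28329 of 55670), and the brightest detected probe stood for its gene. Where only 1 array detected a gene, its fold is a bound, computed against the dim signal or, if higher, the other array's lowest signal well above background (14.6 FOXO1-Tg, 17.5 wild-type). Errors are the scanner's own (median 0.204). For 293 probes with at least 8 spots, the SD over spots was 0.0526 at the median, and the number of arrays limits the precision. No test across samples was possible, so counts past 2-fold or 2 scanner errors are set beside those of all genes.

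The 9 genes and all lists were chosen with earlier results of these data known. All listed relatives that were detected are named (a further one is not reported here), with the 2 highest and 2 lowest genes of each regulator or target list and genes that make up a count of 5 or fewer. Dmpk, Tead1, Hdac4, Hdac5, Hdac7, Hdac9, Acta1, Ckm, Krt1, Krt14, Tpm3 and Trp63 were named after their values were seen. Alternatives covered scaling, background, filters, probes and thresholds. The procedure was also run on simulated arrays. Their changes were larger than those of the 9 genes and they held no differences between mice or labelings, so they do not bear on ratios of this size. Python 3.11.15, numpy 2.4.6, pandas 2.3.3, statsmodels 0.14.6, matplotlib 3.10.9, R 4.3.3 and limma 3.58.1 were used.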

Additional observations from a re-analysis of the deposited data

How the results depend on the processing

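Of 11 alternatives, 5 could not move the ratios of the 9 genes; under the other 6 no ratio moved beyond its scanner error, and 0 of the 9 passed 2-fold under any scaling or filter. The count past 2 scanner errors was 2 throughout, except for 3 with normexp and quantile normalization, where Eya1 (-0.42) was added. With a threshold of 1.5-fold, 2 of the 9 genes (Mef2a and Mef2c) were called, but their ratios with median scaling (-0.55 and -0.54) or no scaling (-0.53 and -0.52), and Mef2a with the median over its probes (-0.55), fall short of 1.5-fold. Counts over all genes moved more. At 1.5-fold, 1533 genes were higher and 1810 lower, and at 3-fold 302 were higher and 236 lower. The count of genes more than 2-fold lower was 409 with loess, 214 with normexp and quantile normalization (with 411 higher), 1752 with no filter on dim probes, and 398 where every spot had to be well above background on both arrays. No paired analysis was possible because a pool of mice is the only sample on either side, and no replicate could be left out. Signal over background limits Mef2b, Tbx5 and Myocd, whose errors were 0.55, 0.41 and 0.37, and does not limit the 9 genes.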
